A study of Mus musculus with 24 samples.

Results

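The interferon-induced transmembrane genes Ifitm1, Ifitm2, Ifitm3 and Ifitm6 were followed in bone marrow samples of irradiated mice, before and after the onset of B-cell leukemia. They are 4 of the 19938 genes named on the arrays, and all 4 were among the 15647 genes with enough signal to be tested. The members were picked by their gene symbols, with earlier results of these arrays known. The difference between leukemic and preleukemic samples had been seen when they were picked, so it is described here without a test. The platform table gave 2 probe sets to Ifitm1, 3 to Ifitm2 and 1 each to Ifitm3 and Ifitm6, and the probe set with the highest mean stood for its gene.

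RNA was measured on 24 one-colour arrays, each from a different sample, and all mice had been exposed to 2 Gy of ionizing radiation. The leukemic groups were 10 samples of tumor-bearing marrow from Pax5+/- mice and 4 from wild-type mice. Pax5+/- mice carry 1 functional allele of the B-cell transcription factor gene Pax5. The preleukemic groups were 7 samples of pro-B and pre-B cells from the marrow of Pax5+/- mice and 3 from wild-type mice. The titles number the samples of each group as biological replicates. The labels give 3 weeks after irradiation for every group, leukemic ones included, and neither the Pax5 allele nor the way the pro-B and pre-B cells were obtained. The titles call the leukemic samples B cells and the preleukemic ones pro/pre-B cells, whereas the design text calls the former tumor-bearing marrow, and no sort is described for them. Stage and cell material therefore cannot be told apart. In bulk samples such as these, more cells of a type and more RNA per cell cannot be told apart either.

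IFITM proteins are small membrane proteins that hinder the fusion of enveloped viruses with the cell. IFITM1 sits mainly at the cell surface, while IFITM2 and IFITM3 sit mainly in endosomes. Interferons bind receptors that activate JAK kinases and STAT factors, and these factors act on interferon-stimulated response elements (ISRE) and gamma-activated sites (GAS) near their target genes. Ifitm genes are classic targets of this pathway, and some cells, stem cells among them, also express them without interferon. In B cells, IFITM3 at the surface supports signalling through PI3 kinase.

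The start regions of the members were read in RefSeq promoters of mouse build GRCm38.p6, which run from 250 bases before to 50 bases after each gene's start on chromosome 7. The stretches with a match are shown because the members are compared with interferon-induced genes. Capitals mark the ISRE core pattern (GAAA, any 2 bases and GAAA) or the GAS pattern (TTC, any 3 bases and GAA), searched on both strands, and each stretch is written 5′ to 3′ on the gene's own strand.
Ifitm2, chr7:140955988-140956017, minus strand: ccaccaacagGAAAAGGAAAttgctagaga
Ifitm3, chr7:141010713-141010742, minus strand: GAAAAGGAAAcTTCTGAGAAACCGAAActg
Ifitm6, chr7:141016884-141016913, minus strand: cccatatgaacTTCCTTGAAacaagagctt
Ifitm2 held 1 ISRE match, which began 46 bases before the start (position -46). Ifitm3 held 2 ISRE matches, beginning at positions 3 and 20 after the start, and 1 GAS match at position 14, which overlaps the second ISRE match. Ifitm6 held a GAS match at position -10 and no ISRE match, and the Ifitm1 window, on the plus strand, held neither pattern. Of 32851 mouse promoters of the same length, 3.44% held the ISRE pattern and 8.3% the GAS pattern. The Ifitm2 and Ifitm3 windows shared a run of 13 bases, CAGGAAAAGGAAA. In RefSeq the models of Ifitm1 and Ifitm2, unlike those of Ifitm3 and Ifitm6, extend upstream of the start used here, so another start of these genes may lie outside the window. The matches describe these letters only and do not show binding.

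The arrays differed in ways that touch the members. Array medians were 6.10 to 6.22 in leukemic and 6.23 to 6.30 in preleukemic samples, so the median of an array went with stage. The mean of 13 B-lineage genes lay between 11.18 and 11.64 on preleukemic and between 8.16 and 10.5 on leukemic arrays, so B-lineage transcripts were present on every array. Preleukemic wild-type array 1 stood apart, with a mean of 10.37 over 20 granulocyte genes against 6.45 and 6.50 on the other preleukemic wild-type arrays, and the values of the members that rest on it are given with and without it. Leukemic Pax5+/- array 2 had a Pax5 signal of 11.37, inside the preleukemic Pax5+/- range of 11.34 to 11.59. Leukemic wild-type array 2 stood apart as well, with a Pax5 signal of 6.34 against 10.03 to 10.74 on the others of its group. Its B-lineage mean, 8.16, was the lowest. Its mean over 45 genes induced by type I interferon was 9.26 against 7.50 to 7.98. Over 10 NK-cell genes it was 9.14 against 5.80 to 6.22. In the wild type Y-linked genes were high on each of the 3 preleukemic arrays and low on each of the 4 leukemic ones, and the sex of these mice and their stage cannot be told apart. Both sexes were found at each stage of the Pax5+/- mice. All values below are log2 signals. No member lay at or below the dim level of its array, the 30th percentile of all probe sets (5.18 to 5.35).

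In both genotypes the mean signal of each of the 4 members was higher in leukemia. In Pax5+/- mice the means were 11.7-fold higher for Ifitm1, 6.75-fold for Ifitm2, 17.6-fold for Ifitm3 and 8.66-fold for Ifitm6. In wild-type mice they were 15.4-fold, 4.23-fold, 10.3-fold and 7.1-fold higher, or 17.0-fold, 5.55-fold, 20.8-fold and 24.7-fold without preleukemic array 1. Ifitm1, Ifitm2 and Ifitm3 did not overlap between the stages of either genotype, whereas Ifitm6 overlapped in both. Across all genes tested, 11.7% in Pax5+/- and 18.9% in wild-type mice had every leukemic array above every preleukemic array. This contrast was known when the members were picked, so nothing is read from these counts.

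Ifitm1, the member found mainly at the cell surface, was 7.37, 7.74 and 8.01 (lowest, median and highest) on the 7 preleukemic Pax5+/- arrays. On the 10 leukemic Pax5+/- arrays it was 8.31, 11.56 and 12.91. The lowest leukemic value, from array 2, was 0.31 above the highest preleukemic one, and arrays 3 and 6 were also low at 9.51 and 9.83. In wild-type mice Ifitm1 was 8.32, 7.59 and 8.16 on preleukemic arrays 1 to 3, and 9.28, 12.94, 12.50 and 13.13 on leukemic arrays 1 to 4. Leukemic array 1 was far below the other 3 but above every preleukemic array. The stage difference was 3.55 ± 0.60 (SE) in Pax5+/- and 3.94 ± 0.93 (SE) in wild-type mice, and the latter was 4.84 without leukemic array 1. Ifitm1 spread widely among leukemias, with an SD of 1.58 (n = 10) in Pax5+/-, at the 99.6 percentile of all genes tested, and of 1.81 (n = 4) in the wild type.

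Ifitm2, an endosomal member, was 7.99, 8.60 and 8.83 (lowest, median and highest) on preleukemic and 11.02, 11.31 and 11.47 on leukemic Pax5+/- arrays. It was almost level among the leukemias: its SD of 0.16 (n = 10) lay at the 46.4 percentile of all genes tested, and the stages were 2.19 apart at their nearest. In wild-type mice Ifitm2 was 10.03, 8.64 and 9.07 on preleukemic arrays 1 to 3, and 11.12, 11.30, 11.35 and 11.54 on leukemic arrays 1 to 4. Preleukemic array 1 was the highest of its group and still 1.09 below the lowest leukemic array. The stage difference was 2.75 ± 0.15 (SE) in Pax5+/- and 2.08 ± 0.22 (SE) in wild-type mice.

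Ifitm3, the other endosomal member and the one tied to PI3 kinase signalling in B cells, was 6.27, 6.88 and 7.74 (lowest, median and highest) on preleukemic Pax5+/- arrays. It was 9.79, 11.17 and 11.89 on leukemic Pax5+/- arrays, where arrays 8 and 2 were the lowest and array 1 the highest, and the stages were 2.05 apart at their nearest. In wild-type mice it was 10.04, 6.74 and 7.23 on preleukemic arrays 1 to 3, and 10.49, 12.05, 11.08 and 11.83 on leukemic arrays 1 to 4. The gap of 0.45 between the wild-type stages was set by preleukemic array 1. The stage difference was 4.13 ± 0.40 (SE) in Pax5+/- and 3.36 ± 0.61 (SE) in wild-type mice, and the latter was 4.38 without that array and 2.73 without preleukemic array 2.

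Ifitm6, a mouse family member, was 5.64, 5.84 and 6.34 (lowest, median and highest) on preleukemic Pax5+/- arrays and 5.71, 9.53 and 11.81 on leukemic ones. Of the 10 leukemic arrays, 9 lay above every preleukemic array, and array 7, at 5.71, lay within the preleukemic range. In wild-type mice Ifitm6 was 11.33, 5.72 and 6.15 on preleukemic arrays 1 to 3, and 10.60, 11.41, 10.78 and 9.45 on leukemic arrays 1 to 4. Preleukemic array 1 was thus above 3 of the 4 leukemic arrays. The stage difference was 3.11 ± 0.80 (SE) in Pax5+/- and 2.83 ± 1.24 (SE) in wild-type mice. The wild-type difference was 4.62 without preleukemic array 1, 1.82 without array 2 and 2.03 without array 3. Without array 1 those of Ifitm1 and Ifitm2 were 4.09 and 2.47.

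**Figure D1:**
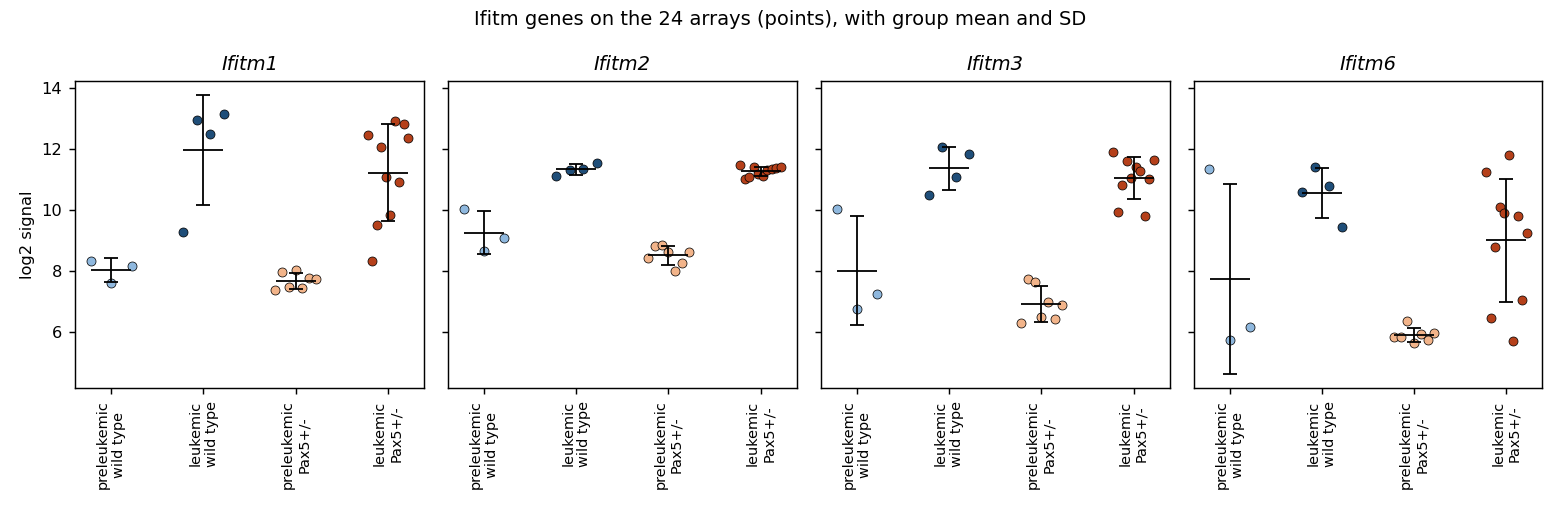
Log2 signal of each member (panels) on each of the 24 arrays (points), with the mean and SD of each group (bars). The leukemic points of Ifitm2 lie together between 11.02 and 11.54, those of Ifitm1 and Ifitm6 spread widely, and preleukemic wild-type array 1 lies near the leukemic arrays for Ifitm3 and Ifitm6.

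The order of the groups was the same for the 4 members. The mean was lowest in preleukemic Pax5+/- samples, higher in preleukemic wild-type, higher again in leukemic Pax5+/- and highest in leukemic wild-type samples. For Ifitm1 the means were 7.67 ± 0.26, 8.02 ± 0.38, 11.22 ± 1.58 and 11.97 ± 1.81 in that order (SD, n = 7, 3, 10 and 4). For Ifitm2 they were 8.51 ± 0.30, 9.25 ± 0.71, 11.26 ± 0.16 and 11.33 ± 0.17. The means of Ifitm3 were 6.91 ± 0.58, 8.00 ± 1.78, 11.05 ± 0.70 and 11.36 ± 0.72, and those of Ifitm6 5.89 ± 0.22, 7.73 ± 3.12, 9.01 ± 2.02 and 10.56 ± 0.82. Without preleukemic wild-type array 1 that group's means were 7.88, 8.85, 6.99 and 5.94 for Ifitm1, Ifitm2, Ifitm3 and Ifitm6, so the step between the preleukemic groups was small for Ifitm3 and Ifitm6. Leukemic Pax5+/- and preleukemic wild-type arrays, neighbours in this order, still overlapped for Ifitm1, Ifitm3 and Ifitm6, with lowest leukemic values of 8.31, 9.79 and 5.71 against highest preleukemic values of 8.32, 10.04 and 11.33. They did not overlap for Ifitm2, at 11.02 against 10.03. Neighbours of the same stage overlapped for all 4 members.

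Genotype was compared within each stage with limma, adjusted over all 15647 genes. These comparisons did not choose the members, but they share arrays with the stage comparisons. Among leukemic samples, where 0.16% of all genes were called, no member was called. Pax5+/- minus wild type was -0.74 for Ifitm1 (limma adjusted p = 0.905), -0.07 for Ifitm2 (0.969), -0.32 for Ifitm3 (0.948) and -1.55 for Ifitm6 (0.778). Among preleukemic samples, where 0.786% were called, the differences were -0.35 for Ifitm1 (limma adjusted p = 0.984), -1.09 for Ifitm3 (0.579) and -1.84 for Ifitm6 (0.686). Those of Ifitm3 and Ifitm6 rested on preleukemic wild-type array 1, without which they were -0.075 and -0.043. Ifitm2 came nearest to a call there, with a difference of -0.74 ± 0.20 (SE), an unadjusted p of 0.00136 and an adjusted p of 0.103 in limma. A two-sided exact permutation test of the 10 preleukemic arrays gave Ifitm2 an unadjusted p of 0.025. The difference of Ifitm2 depended on single arrays as well: it was -0.35 without preleukemic wild-type array 1 (limma adjusted p = 0.468) and -1.04 without array 2 (limma adjusted p = 0.0159).

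The stage differences of the genotypes were also compared with each other. The wild-type difference subtracted from the Pax5+/- difference gave -0.39 ± 1.11 (SE) for Ifitm1, 0.67 ± 0.27 for Ifitm2, 0.78 ± 0.73 for Ifitm3 and 0.29 ± 1.47 for Ifitm6. The limma adjusted p was 0.971, 0.473, 0.852 and 0.981, with 0.185% of all genes called. No difference between the genotypes was detectable, and with these SEs a 2-fold one could have been missed for each of the 4 members. For Ifitm3 and Ifitm6 the sign turned without preleukemic wild-type array 1, to -0.24 and -1.51.

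Most other interferon-induced genes differed less between the stages than the members, which were picked with this contrast known. Those called went both ways, with more up than down in Pax5+/- mice. A list of 50 genes induced by type I interferon, the alpha and beta interferons, had 45 genes tested. In leukemic against preleukemic Pax5+/- samples 62.9% of all genes tested were called. Of the 45, 15 rose (33.3%) and 4 fell (8.89%) at a limma adjusted p under 0.05, with a median log2 difference of 0.31. Over all genes 27.8% rose and 35.1% fell, with a median of -0.05. Centred on array medians, all genes split into 5066 that rose and 3502 that fell, against 4354 and 5485 as deposited, and the type I genes into 18 that rose and 4 that fell. In wild-type mice 3 type I genes rose (6.67%) and 4 fell (8.89%), with a median of 0.20. There 39.1% of all genes were called, 18.7% higher and 20.4% lower. After centring, the wild-type split was 4 and 3 for the type I genes. For all genes it was 3379 and 2177, against 2924 and 3191 as deposited. Without preleukemic wild-type array 1, 6 type I genes rose, and without leukemic wild-type array 2, 11 fell. All 24 arrays enter each of these counts through a shared estimate of spread.

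The type I genes with the largest rises in Pax5+/- mice were Lgals3bp, which encodes a secreted galectin-binding protein, by 3.30 ± 0.24 (SE, limma adjusted p = 1.7e-10), and Rtp4, which encodes a chaperone of receptor transport, by 2.16 ± 0.38. Slfn5 rose by 1.90, the RIG-I-like receptor gene Dhx58 by 1.29, the oligoadenylate synthetase-like gene Oasl2 by 1.27 and Irf7, a transcription factor of the interferon response, by 1.22. Lgals3bp was the gene of the list closest to the members in size, and its rise was larger than the differences of Ifitm2 and Ifitm6. Sp100 fell, with a difference of -0.95, as did the RNA sensor gene Ddx58 (-0.90), Stat2, which encodes a subunit of the factor that binds ISRE elements (-0.60), and Trim25 (-0.58). In wild-type mice Lgals3bp rose by 2.69, Rtp4 by 1.85 and the kinase gene Eif2ak2 by 0.65, while Sp100, Ddx58, Trim30a and Stat2 fell, with differences of -1.36, -1.08, -0.78 and -0.55.

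Genes often used as interferon indicators were not uniform. In Pax5+/- mice Oas2 rose by 1.16 ± 0.40 (SE), Bst2, which encodes the antiviral protein tetherin, by 1.01 ± 0.28 and Ifit1 by 0.98 ± 0.42. The differences were 0.31 for Ifit3, 0.07 for Mx1 and -0.52 for Rsad2, and none of these passed the test. In wild-type mice none of these 6 genes passed it, with differences of 1.11 for Oas2, 0.70 for Bst2, 0.75 for Ifit1, 0.17 for Ifit3, -0.12 for Mx1 and 1.03 for Rsad2. Several of them were dim: before leukemia Ifit1 averaged 5.35 ± 0.18, Ifit3 5.45 ± 0.10 and Mx1 5.27 ± 0.06 (SD, n = 7) in Pax5+/- samples, close to the dim level, where differences are compressed.

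A list of genes induced mainly by interferon gamma, which hold GTPases and the antigen-processing machinery, had 19 of 24 genes tested. In Pax5+/- mice 5 rose (26.3%) and 4 fell, with a median of 0.30, and in wild-type mice 4 rose (21.1%) and 2 fell, with a median of 0.16. After centring the splits were 6 to 3 and 4 to 1. The GTPase gene Gbp7 rose by 2.15 ± 0.35 (SE) and 1.71 ± 0.54 in the 2 genotypes, the proteasome gene Psmb8 by 1.12 and 0.56, Psmb9 by 0.66 and 0.78, and the peptide transporter gene Tap1 by 1.03 and 0.61. Gbp9 fell in both genotypes, with differences of -1.80 and -1.41, as did Socs1, a feedback inhibitor of the pathway, with -0.78 and -0.87, although the wild-type call of Socs1 was lost after centring.

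**Figure D2:**
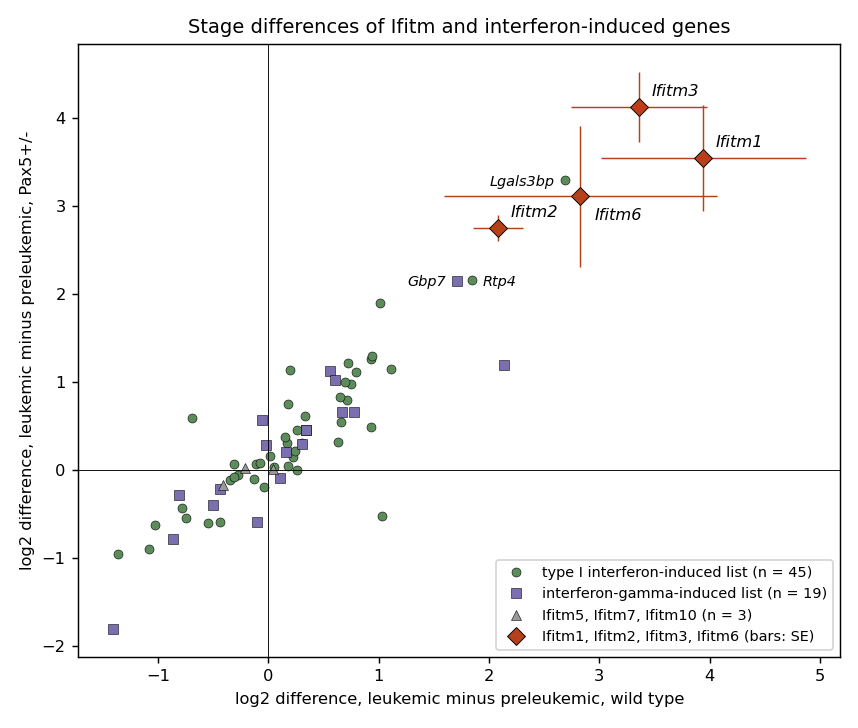
Log2 difference between leukemic and preleukemic samples in wild-type (horizontal axis) and Pax5+/- mice (vertical axis) for the 4 members (diamonds, bars are SE), the 45 type I genes (circles), the 19 interferon-gamma genes (squares) and the other Ifitm genes (triangles). Lgals3bp lies among the members, and most genes of both lists lie within 1 of zero on both axes.

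The same was seen array by array. The mean of the 45 type I genes was 7.42 to 7.76 on preleukemic Pax5+/- arrays and 7.25 to 8.52 on leukemic ones. On 3 leukemic Pax5+/- arrays, numbers 2, 8 and 9, it was no higher than on the highest preleukemic array, at 7.25, 7.75 and 7.61. Their Ifitm3 signals were 9.94, 9.79 and 11.02, all above the highest preleukemic value of 7.74, although arrays 8 and 2 were the lowest leukemic ones. Their Ifitm2 signals were 11.02, 11.33 and 11.37. Ifitm1 was 8.31, 10.9 and 12.82 on them, against a highest preleukemic value of 8.01, and array 2 was the lowest leukemic one. Ifitm6 was 6.46, 9.81 and 7.04, against a highest preleukemic value of 6.34. In wild-type mice the type I mean was 8.09, 7.59 and 7.86 before leukemia and 7.98, 9.26, 7.56 and 7.50 in leukemia. Leukemic arrays 3 and 4 thus had a lower type I mean than every preleukemic wild-type array and Ifitm1 signals of 12.50 and 13.13. On these arrays Ifitm2 was 11.35 and 11.54 and Ifitm3 11.08 and 11.83. Ifitm6 was 10.78 and 9.45, both below preleukemic array 1 at 11.33.

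**Figure D3:**
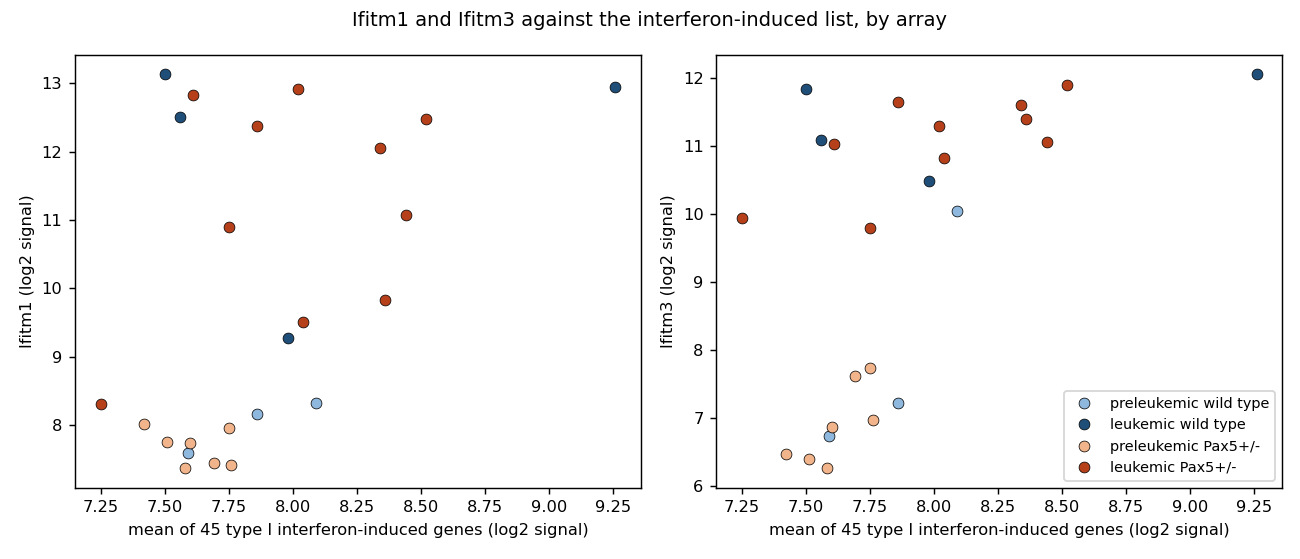
Ifitm1 (left) and Ifitm3 (right) on each array against the array's mean over 45 type I interferon-induced genes, all as log2 signal, with 1 point per array coloured by group. Leukemic arrays with a type I mean as low as that of preleukemic arrays are high in Ifitm3, but among them leukemic Pax5+/- array 2 is low in Ifitm1. Leukemic wild-type array 2 has the highest type I mean, 9.26.

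Interferon genes and the pathway above the targets were examined as lists of their own. Over all genes tested 27.8% rose and 35.1% fell in Pax5+/- mice, and 18.7% rose and 20.4% fell in wild-type mice. Of 10 interferon genes listed, 8 were named on the arrays and 5 were tested, while Ifna4, Ifnb1 and Ifnk were too dim. Of the 5, 3 fell and none rose in each genotype (limma, all genes tested). They were Ifna2, Ifna5 and Ifnl2, with differences of -0.31, -0.40 and -0.46 in Pax5+/- mice. Ifna2 was itself dim, averaging 5.95 before and 5.64 in Pax5+/- leukemia. After centring or repeated quantile normalization the wild-type call of Ifna2 was lost. The other 2, Ifne and Ifng, had differences of -0.07 and -0.12 in Pax5+/- mice. Of 14 receptor, kinase and interferon regulatory factor genes, 2 rose and 4 fell in Pax5+/-, and 2 rose and 6 fell in wild-type mice, where 4 fell without preleukemic array 1 and 5 after centring. Both that rose encode receptor chains: Ifngr1, of the interferon gamma receptor, by 1.46 ± 0.11 (SE) and 1.42 ± 0.18, and Ifnar2, of the type I receptor, by 0.62 and 0.70. The B-cell regulator gene Irf4 fell, with differences of -2.92 and -2.95, and Irf2, a repressor of the pathway, with -0.76 and -0.69. Irf8 fell in both genotypes as well, by 0.89 in Pax5+/- mice.

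Genes whose products bind or modify IFITM proteins moved both ways. Of 9 tested, 4 rose and 2 fell in Pax5+/- mice, where 27.8% of all genes tested rose and 35.1% fell. In the wild type 3 rose and 2 fell, where 18.7% and 20.4% of all genes did. Nothing about the set is read from these counts. Cd81, which encodes a tetraspanin, averaged 10.80 ± 0.11 (SD, n = 7) before and 11.76 ± 0.15 (SD, n = 10) in Pax5+/- leukemia and rose by 0.96 ± 0.06 (SE), with a rise of 0.86 in the wild type. The tetraspanin gene Cd9 rose by 1.18 and 0.82, and Nedd4, whose product ubiquitinates IFITM3, by 1.73 and 0.96. Zdhhc20, which encodes a palmitoyltransferase that acts on IFITM3, fell, with differences of -0.30 and -0.47.

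The 3 further Ifitm genes on the arrays showed no such differences, but the members were picked with this contrast known. Group means of the 3 were low, at 5.8 to 6.8, against a dim level of 5.18 to 5.35. Ifitm5, a gene of bone-forming cells, differed between stages by 0.03 in Pax5+/- and -0.21 in wild-type mice, and Ifitm7 by 0.01 and 0.04, and neither was called. Ifitm10 fell, with differences of -0.17 (limma adjusted p = 0.0198) and -0.41 (limma adjusted p = 0.00155), although in Pax5+/- mice the call was lost after centring. Without preleukemic array 1, 2 of these 3 genes fell in wild-type mice. Of 5 other genes with the same CD225 domain, 0 rose and 1, Prrt1, fell in Pax5+/- mice, and this call was lost after centring and after repeated quantile normalization.

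The genes beside the cluster were read in the order of the RefSeq gene table, 8 on each side, and 14 of these 16 were tested. In Pax5+/- mice 5 rose and 2 fell, where 27.8% of all genes tested rose and 35.1% fell. In wild-type mice 2 rose and 2 fell, where 18.7% and 20.4% did. The largest difference was that of the mitochondrial deacetylase gene Sirt3, which rose by 1.54 ± 0.11 (SE) and 0.98 ± 0.17. Ptdss2 rose by 0.24 and 0.71, and Pgghg, next to Ifitm5, fell, with differences of -0.28 and -0.64. B4galnt4, next to Ifitm6, differed by -0.02 and -0.13 and was not called. The differences of the 4 members were larger than those of every neighbour tested. The members were picked with this contrast known and the neighbours were not, so nothing is read from that.

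**Figure D4:**
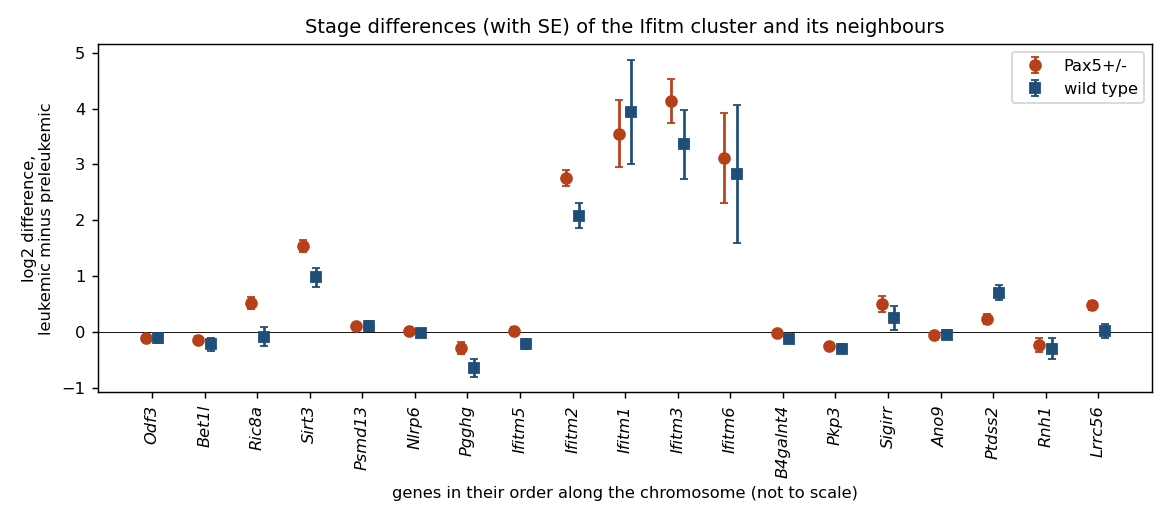
Log2 difference between leukemic and preleukemic samples, with SE, for the tested genes of the Ifitm cluster and its neighbours in their order along the chromosome (not to scale), in Pax5+/- (circles) and wild-type mice (squares). Ifitm2, Ifitm1, Ifitm3 and Ifitm6 stand next to each other with differences of 2.08 or more, while Ifitm5 and the gene on the other side, B4galnt4, lie near zero.

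Markers of several other marrow cell types were also higher in leukemic samples. All 6 platelet genes tested rose in both genotypes, and 10 of 12 stromal and endothelial genes rose in each, so that Ppbp, which encodes a platelet chemokine, rose by 6.18 and 6.59. Of 14 monocyte and macrophage genes 10 rose in Pax5+/- and 4 in wild-type mice, and of 20 granulocyte genes 12 and 0 rose. Without preleukemic array 1, 8 monocyte and macrophage and 15 granulocyte genes rose in the wild type. Of 13 B-lineage genes 10 fell in each genotype. The granulocyte mean was 6.11 to 6.72 on preleukemic and 6.12 to 10.44 on leukemic Pax5+/- arrays, and the platelet mean was 6.80 to 7.05 and 8.14 to 11.11. The monocyte mean was 6.35 to 6.69 and 7.06 to 9.65, and the stromal mean 6.53 to 6.70 and 7.43 to 8.75. In Pax5+/- mice 4 of 10 genes of stem and progenitor cells rose, with the receptor gene Flt3 up by 4.90, and 2 fell, or 1 after centring. There 1 of 10 NK-cell, 3 of 10 T-cell, 5 of 11 dendritic and 0 of 6 erythroid genes rose, where 27.8% of all genes tested rose. In wild-type mice 0 NK-cell, 0 T-cell, 1 dendritic and 2 erythroid genes rose, where 18.7% of all genes tested rose. Of the dendritic genes 2 fell in wild-type mice, and of the erythroid genes 1 fell in Pax5+/- mice. The part of these cells in the stage differences of the members was not tested.

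Within the 10 leukemic Pax5+/- arrays, each member was set against the means of 8 lists, which gave 32 pairs adjusted together. These correlations do not use the stage difference, and 3 pairs passed the threshold. Ifitm6 followed the granulocyte genes, with a Pearson r of 0.959 (permutation p = 4e-05, adjusted p = 0.00128, n = 10) and a Spearman rho of 0.939 (permutation p = 0.0002, adjusted p = 0.0064). Without the 2 arrays with the most extreme granulocyte means r was 0.976 (permutation adjusted p = 0.017, n = 8). Array 7, where Ifitm6 was 5.71, had the lowest granulocyte mean, 6.12, and array 6, where it was 11.81, had the highest, 10.44. The preleukemic wild-type array that was high in Ifitm6 also had a granulocyte mean of 10.37.

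Ifitm1 ran against the B-lineage genes, with r = -0.824 (permutation p = 0.00266, adjusted p = 0.0423, n = 10). The relation rested on few arrays: rho was -0.685 (permutation adjusted p = 0.188), and without arrays 2 and 10 r was -0.645 (permutation adjusted p = 0.487, n = 8). Array 2, the lowest in Ifitm1, had the highest B-lineage mean of the leukemic Pax5+/- arrays, 10.5. No relation of Ifitm1 to the granulocyte mean was detectable (r = 0.002, permutation adjusted p = 0.996, n = 10). Ifitm2 was higher on arrays with a higher mean of the interferon-gamma genes, with r = 0.729 (permutation p = 0.00397, adjusted p = 0.0423, n = 10) and rho = 0.855 (permutation adjusted p = 0.0472), but over a range of only 11.02 to 11.47. Without arrays 1 and 4 r was 0.754 (permutation adjusted p = 0.184, n = 8). Ifitm1 did not pass with that mean, at r = 0.577 (permutation adjusted p = 0.179, n = 10) and rho = 0.770 (permutation adjusted p = 0.129). Without arrays 1 and 4 its r was 0.857 (permutation adjusted p = 0.081, n = 8). For Ifitm3 and Ifitm6 r was 0.576 and 0.335, and neither passed. Ifitm1 did not pass with the stem and progenitor mean either, at r = 0.752 (permutation adjusted p = 0.102, n = 10).

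With the type I mean no member passed the threshold. The r was 0.314 for Ifitm1 (permutation adjusted p = 0.601, n = 10), 0.276 for Ifitm2 (0.667), 0.705 for Ifitm3 (0.104) and 0.711 for Ifitm6 (0.104), with rho of 0.115, 0.273, 0.624 and 0.745. Without the 2 arrays with the most extreme type I means, r was -0.391, -0.471, 0.422 and 0.541 in the same order. The arrays left out were numbers 1 and 2, which had the highest and the lowest type I mean, 8.52 and 7.25.

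**Figure D5:**
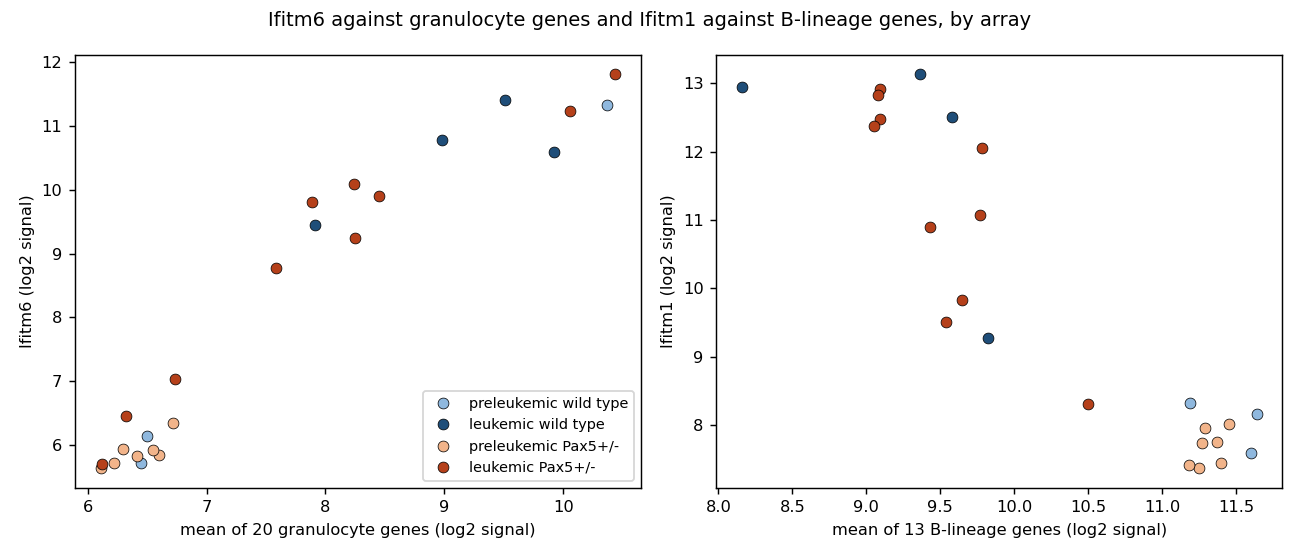
Ifitm6 against the mean of 20 granulocyte genes (left) and Ifitm1 against the mean of 13 B-lineage genes (right), as log2 signal, with 1 point per array coloured by group. Ifitm6 runs from 5.71 to 11.81 along the granulocyte mean in leukemic Pax5+/- arrays, and leukemic Pax5+/- array 2 lies between the stages for B-lineage genes and is low in Ifitm1.

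The members also differed in how they moved together. Within the leukemic Pax5+/- arrays r was 0.886 between Ifitm1 and Ifitm2, 0.614 between Ifitm1 and Ifitm3, and 0.516 between Ifitm2 and Ifitm3 (n = 10). Ifitm6 had r of -0.043 with Ifitm1, 0.186 with Ifitm2 and 0.368 with Ifitm3. These values are given without a test, since similar sequences can share probe signal. The 2 probe sets of Ifitm1 had r = 0.998 over the 24 arrays, and the 3 of Ifitm2 had r of 0.995 to 0.998, so the probe sets of a gene ran closely together. Whether they also bind other copies of these genes was not tested.

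The genes most like each member were found by Pearson r among 14820 genes tested, leaving out members, predicted genes and antigen receptor segments. Over all 24 arrays, which include both stages, they were Tbc1d4 for Ifitm1 (r = 0.978), Fxyd5 for Ifitm2 (0.986), Tnfrsf1a for Ifitm3 (0.972) and Lcn2 for Ifitm6 (0.973). The interferon-gamma gene Gbp7 came next for Ifitm1 (0.937), and the type I gene Lgals3bp was among the 5 most like Ifitm3 (0.969). Within the 10 leukemic Pax5+/- arrays they were Tbc1d4 for Ifitm1 (0.937), Septin2 for Ifitm2 (0.951), Casp4 for Ifitm3 (0.961) and S100a8 for Ifitm6 (0.988). For Ifitm6 the 5 most alike genes were the granulocyte genes S100a8, Lcn2, Ngp, S100a9 and Ltf in both sets of arrays.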

How the data were processed

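The authors deposited log2 signals for 35556 probe sets on each of 24 one-colour arrays. The submitters' processing notes name RMA and the oligo package. RMA corrects background, normalizes quantiles across arrays and summarizes probes, and it compresses differences between dim signals. The labels and files name neither versions nor batches. Signals lay between 3.48 and 14.2 and none was missing.

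Names came from the platform table, where 21789 had 1 symbol, 1621 had several and 12146 were not listed. Only those with 1 symbol were used, and each gene took its probe set with the highest mean. A gene was tested if it exceeded the dim level, the 30th percentile of the array, on at least 3 arrays.

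Means of the 4 groups, taken from the labels, were fitted with limma 3.58.1 in R 4.3.3 (lmFit, contrasts.fit and eBayes), two-sided, with Benjamini-Hochberg adjustment over 15647 genes and calls at an adjusted p under 0.05. Correlations used 100000 permutations of the arrays. The samples are biological replicates per their labels, and their number limits the precision. The script for the fit was tested on simulated data. No pairing by replicate number was found: deviations of samples with the same number correlated at -0.22 to 0.09.

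The members and the gene lists were chosen with earlier results of these data known. The genes named were the members, their family, partner, ligand and signalling lists, the neighbours, up to 6 called genes with the largest rise and fall in each interferon-induced list plus a panel of indicator genes, up to 4 called genes of each cell type list, and the genes most like each member. Some listed genes were not analysed here. Alternatives covered the eBayes prior, the groups fitted, array weights, the filter, the scaling, the replicate block, the probe set and each array left out.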

Additional observations from a re-analysis of the deposited data

Results flagged for a closer look

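The signal of Ifitm1 on leukemic wild-type array 1 was 9.28, far below the other 3 arrays of its group, which lay between 12.50 and 13.13. The same array had a B-lineage mean of 9.82, the highest of the leukemic wild-type arrays, and a granulocyte mean of 9.92, also the highest. The part of either in the Ifitm1 value was not tested.

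Ifitm6 on preleukemic Pax5+/- array 3 was 6.34, above the other 6 arrays of that group, which lay between 5.64 and 5.94. Its granulocyte mean of 6.72 was the highest of the group. In all, 12 sets of 4 or more arrays were examined for a value standing apart and 2 gave one, where chance alone gives about 1 in 20.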

How the results depend on the processing

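The stage differences of the 4 members kept their direction under every alternative run, and that of Ifitm2 in Pax5+/- mice was 2.39 with its probe set of middle brightness. No genotype or interaction value of Ifitm1, Ifitm3 or Ifitm6 was called under any alternative. The leukemic genotype difference of Ifitm2 turned to 0.015 with its dimmest probe set. The preleukemic one, -0.74, passed 0.05 in the unadjusted exact permutation test. With the replicate number as a block, 1 type I and 2 interferon-gamma genes rose in wild-type mice. With only the groups compared, 1 type I gene fell and 2 interferon-gamma genes rose there. With array weights 2 interferon-gamma genes rose, and with centred arrays 1 fell.

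With 1 array left out at a time, the Ifitm2 genotype difference was -0.135 to 0.003 in leukemic and -1.04 to -0.35 in preleukemic samples, the latter called without wild-type array 2. The interaction was -0.24 to 1.41 for Ifitm3 and -1.51 to 1.29 for Ifitm6. In wild-type mice 1 to 6 type I genes rose and 2 to 11 fell, the 11 without leukemic array 2, and 1 to 5 interferon-gamma genes rose and 0 to 4 fell. In Pax5+/- mice 12 to 19 type I genes rose.

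Without the 2 most extreme arrays 1 pair of member and list passed the threshold. The r turned to -0.391 for Ifitm1 and -0.471 for Ifitm2 with the type I mean, -0.095 and -0.114 with the monocyte mean, 0.054 for Ifitm2 with platelet, and for Ifitm6 to -0.285 with interferon-gamma, 0.535 with platelet and 0.530 with B-lineage genes. Spearman's rho was -0.103 for Ifitm1 with granulocyte and 0.139 for Ifitm6 with B-lineage genes. After centring, r was -0.011 for Ifitm1 with granulocyte and -0.035 for Ifitm2 with stromal genes. The cause of these changes was not tested. The 3 preleukemic wild-type arrays limit every wild-type value.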

Other observations

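Within the 10 leukemic Pax5+/- arrays the signal of Ifitm7, which was not called between stages, followed Ifitm3 with r = 0.804 and Ifitm1 with r = 0.735. Its range on these arrays was 6.15 to 6.57, against 9.79 to 11.89 for Ifitm3. Over all 24 arrays the same r was 0.175 and 0.411. These are values without a test, and whether Ifitm7 probes pick up signal of the other members was not tested.

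The arrays that were highest in one member were often not so in another. Leukemic Pax5+/- array 7 had the highest Ifitm1 of its group, 12.91, and the lowest Ifitm6, 5.71, with a granulocyte mean of 6.12. Array 6 had the highest Ifitm6, 11.81, with an Ifitm1 of 9.83. Array 1 was the highest in Ifitm2 and Ifitm3, at 11.47 and 11.89, and also had the highest type I and interferon-gamma means, 8.52 and 9.6.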
